A study of Mus musculus with 6 samples.

Results

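The genes described here are the natriuretic peptides Nppa and Nppb, their receptors Npr1, Npr2 and Npr3, and Corin, the protease that matures the Nppa product. They are 6 of the 18193 genes that a probe set names alone, and were found as all probe sets whose only annotated symbol is one of them, which gave 8 of the 45037 probe sets on the array that are not controls: 1 each for Nppa, Nppb, Corin, Npr1 and Npr2, and 3 for Npr3. All 8 lay above the filter on dim probe sets and were tested among 27022. Total RNA from mouse hearts was labelled and hybridised to Affymetrix arrays, 2 arrays in each of 3 groups. The treated group was apoE-deficient on the B6 background, carried the label failing heart, and had been given rosiglitazone, an antidiabetic agonist of the nuclear receptor PPAR gamma, at a daily dose of 30 mg per kg, starting when the mice were 6 months old and lasting 2 months. The untreated apoE-deficient group shared that genotype and background without the drug, and the B6 group was wild type and untreated. Hearts of all groups were taken at 8 months of age, and all mice ate the same chow with 7% fat and 0.15% cholesterol. Only 1 genotype received the drug and only the treated hearts are labelled as failing, so drug and failure cannot be told apart here. No source used here gives the sex of the mice or states if an array holds 1 heart or a pool. Since the 2 arrays in each group are not said to come from separate mice, the spread that p-values measure may be technical.

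Nppa encodes atrial natriuretic peptide and Nppb encodes B-type natriuretic peptide, hormones that heart muscle secretes when its wall is stretched. Atrial muscle is the main source of Nppa in the adult heart, and ventricular muscle raises both genes under load. The peptides lower blood volume and pressure through Npr1, a receptor that makes cyclic GMP, while Npr2 is the like receptor for the C-type peptide. Npr3 lacks the cyclase domain and clears the peptides from the circulation, and it is abundant in fat, endocardium and blood vessels.

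Nppb and Nppa lie beside each other on mouse chromosome 4, both on the plus strand, with transcription starts 14822 bases apart in the RefSeq annotation of GRCm38.p6. The 250 bases before each start, chr4:147985650-147985899 for Nppb and chr4:148000472-148000721 for Nppa, are shown because these neighbouring genes differed in opposite directions between untreated apoE-deficient and B6 hearts. Capitals mark every match, on either strand, to 4 motifs: GATAA (bound by GATA factors), CATTCC (the M-CAT element of TEAD factors), TNAAGTG (the NKE element of Nkx2-5) and TATAAA.
Nppb: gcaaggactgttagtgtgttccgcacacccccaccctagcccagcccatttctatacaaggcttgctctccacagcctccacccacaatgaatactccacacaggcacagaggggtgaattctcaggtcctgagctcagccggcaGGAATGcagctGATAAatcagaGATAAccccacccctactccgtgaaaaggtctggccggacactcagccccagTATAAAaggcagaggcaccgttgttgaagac
Nppa: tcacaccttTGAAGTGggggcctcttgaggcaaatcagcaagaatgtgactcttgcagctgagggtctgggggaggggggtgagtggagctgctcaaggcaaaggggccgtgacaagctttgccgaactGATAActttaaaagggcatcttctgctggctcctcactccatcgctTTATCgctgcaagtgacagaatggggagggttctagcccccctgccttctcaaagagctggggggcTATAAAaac
The Nppb window held 2 GATAA matches, starting 94 and 83 bases before the start, 1 M-CAT match on the minus strand at 105 and TATAAA at 31. In the Nppa window there were also 2 GATAA matches, at 121 and, on the minus strand, at 75, with 1 NKE match at 241 and TATAAA at 9. Thus the windows shared GATAA and TATAAA, the M-CAT match stood in Nppb and the NKE match in Nppa, and none of these matches overlap. The CArG box of serum response factor, searched as well, matched neither. Windows of the same length before all 32851 RefSeq starts held GATAA in 22.6%, CATTCC in 12.6%, TNAAGTG in 10.1%, TATAAA in 12.4% and a CArG box in 1.47%. The windows of Corin, Npr1, Npr2 and Npr3 held no match to these 5 motifs. A match is a description of the letters and was not tested as a binding site.

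The deposited signals were not on one scale: the 2%-trimmed mean signal was 340.7 and 263.4 for treated, 125.6 and 130.4 for untreated apoE-deficient and 175.5 and 148.9 for B6 hearts. Values below are therefore log2 of quantile-normalised signal plus a pseudocount of 10.2, unless given as deposited signal, and each difference was set against 6 other scalings. Over all 45037 non-control probe sets, with no filter on dim ones, the median difference was -0.032 between treated and untreated apoE-deficient hearts. It was 0.0047 between untreated apoE-deficient and B6 hearts, and -0.025 between treated and B6 hearts. It moved to 0.099, 0.11 and 0.21 with scaling to the spiked-in hybridization controls, to 0.54, -0.041 and 0.50 with scaling to a heart muscle gene list, and to 0.91, -0.24 and 0.67 with no scaling. Higher probe sets made up 50.5%, 44.9% and 49.6% of the calls with quantile normalization, 79.6%, 80.9% and 92.5% with spike-in scaling, and 64.7%, 25.8% and 45.8% with array medians centred. With heart muscle scaling those shares were 99.1%, 31.3% and 99.2%, and with no scaling 99.9%, 4.65% and 99.7%. Apoe, the deleted gene, had log2 signals of 6.18, 6.24 (treated), 5.21, 6.28 (untreated apoE-deficient) and 11.91, 11.86 (B6), so all 4 apoE-deficient arrays matched their labels. All 18 genes of a heart muscle list were above the filter level in every group.

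Of the 8 probe sets, 5 passed between treated and untreated apoE-deficient hearts, all of them higher (Nppa, Npr2 and the 3 of Npr3), where 19.8% of all tested probe sets passed, 9.98% as higher and 9.8% as lower. Between untreated apoE-deficient and B6 hearts 3 of 8 passed, Nppb as higher and Nppa and Corin as lower, where 7.05% of all tested probe sets did, 3.16% as higher and 3.89% as lower. Treated hearts differed from B6 in 7 of 8, lower for Corin and higher for all but Npr1 of the rest, where 15.1% passed, 7.46% as higher and 7.59% as lower. The 3 Npr3 probe sets measure 1 gene and are not separate evidence. Without the fit's intensity trend these counts were 4, 0 and 2, at 1610, 10 and 590 calls over all probe sets in place of 5347, 1905 and 4067, and Apoe itself was then not called between untreated apoE-deficient and B6 hearts.

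Nppa was among the brightest probe sets on every array and its groups did not overlap. Its deposited signals were 20190 and 17697 in treated hearts, 8188.8 and 8288.9 in untreated apoE-deficient hearts, and 14880 and 13672 in B6 hearts. Its rank by brightness among the probe sets of its array, which no scaling of whole arrays changes, was 14 and 15 in treated hearts, 184 and 183 in untreated apoE-deficient hearts, and 42 and 42 in B6 hearts. Nppa thus stood highest in treated hearts, next in B6 hearts and lowest in untreated apoE-deficient hearts by signal and by rank. After normalization its log2 values were 14.06 and 14.04, 13.28 and 13.29, and 13.81 and 13.81 in the same order. The B6 values are equal because equal ranks take equal values, so their SD of 0 understates the spread between those arrays.

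Nppa was lower by 0.53 ± 0.028 (log2 difference ± SE, n = 2 arrays a group throughout) in untreated apoE-deficient than in B6 hearts, which is 1.44-fold on this scale, where the pseudocount understates changes of dim probe sets (limma with Benjamini-Hochberg adjustment, adjusted p = 2.18e-05). It was higher by 0.77 ± 0.028, or 1.70-fold, in treated than in untreated apoE-deficient hearts (limma adjusted p = 5.99e-07). Both comparisons share the untreated apoE-deficient arrays and are not independent of each other. Nppa passed as lower in untreated apoE-deficient hearts under all 7 scalings, from -0.79 to -0.32. Its rise in treated hearts was called under 4 scalings and was not called with trimmed-mean scaling (-0.029), centred array medians (0.044) or spike-in scaling (0.15). Against B6, treated hearts were higher by 0.24 ± 0.028 (limma adjusted p = 0.000609), and this turned to -0.48 with trimmed-mean scaling, -0.49 with centred medians and -0.17 with spike-in scaling. Whether the Nppa rise over untreated apoE-deficient hearts is called therefore depends on the scaling, and its trimmed-mean value lies just below 0. Between treated and B6 hearts the direction itself depends on the scaling. The lower level of Nppa in untreated apoE-deficient than in B6 hearts does not.

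Nppb had another order of groups. Its deposited signals were 10444 and 9022.5 in treated, 6106.1 and 6498.3 in untreated apoE-deficient and 4931.5 and 4500.9 in B6 hearts. Its rank was 350 and 314 in treated, 294 and 276 in untreated apoE-deficient, and 529 and 503 in B6 hearts. On the normalised log2 scale it was 12.81 and 12.89, 12.95 and 12.99, and 12.38 and 12.44. Both B6 arrays were thus below all 4 apoE-deficient arrays by signal, by rank and after normalization. Nppb was higher by 0.56 ± 0.042, or 1.47-fold, in untreated apoE-deficient than in B6 hearts (limma adjusted p = 0.000207). It passed as higher there under 6 of 7 scalings, and the unscaled signals gave 0.42 without passing. Treated hearts were above B6 by 0.44 ± 0.042 (limma adjusted p = 0.000201), a call lost with trimmed-mean scaling and with centred medians (0.15 each).

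Between treated and untreated apoE-deficient hearts the Nppb difference was -0.12 ± 0.042 and did not pass (limma adjusted p = 0.0863, range 3.1e-05 to 0.431 over 17 alternatives). A lower level was called with centred medians (-0.53), trimmed-mean scaling (-0.60) and spike-in scaling (-0.42), a higher one with heart muscle scaling (0.15) and no scaling (0.62), and a lower one when the second treated array was left out (-0.16). The unscaled value lies below the median of all probe sets under that setting, given above. No direction can be given for Nppb in this comparison.

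**Figure D1:**
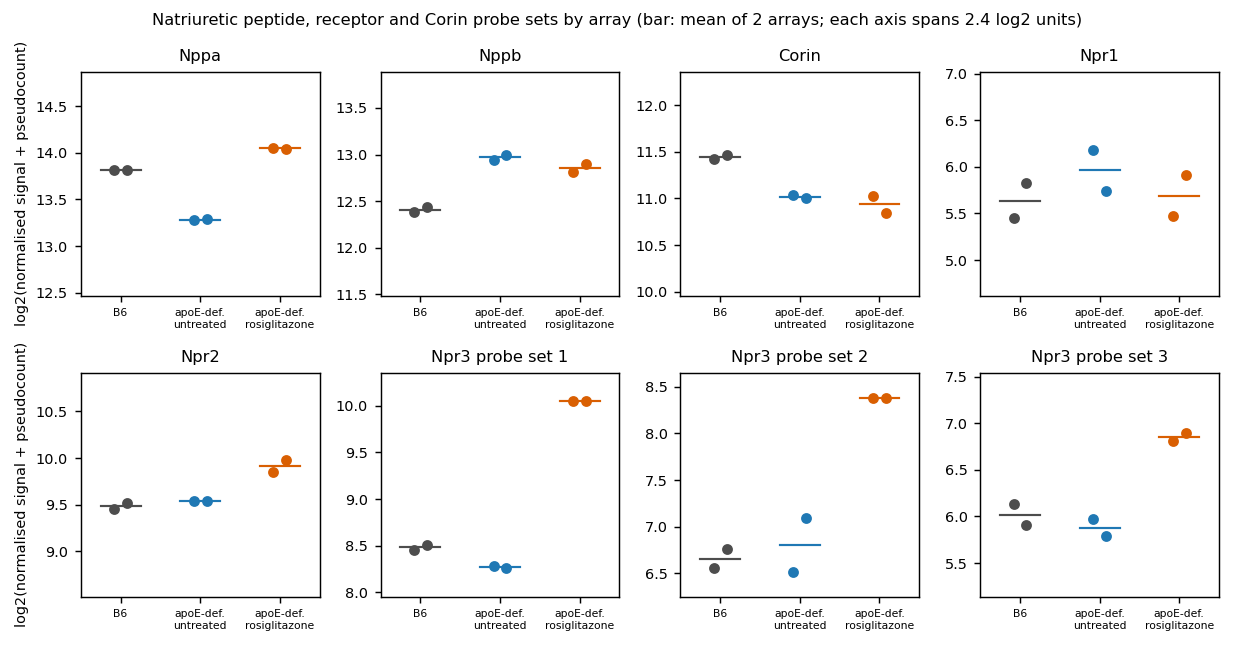
Log2 normalised signal plus pseudocount of the 8 probe sets, 1 panel each, on the vertical axis against the 3 groups; points are arrays, bars are means of 2 arrays, and each axis spans 2.4 log2 units. Nppa falls from B6 to untreated apoE-deficient hearts while Nppb rises, and the 3 Npr3 probe sets stand higher on both treated arrays than on the other 4.

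The ratio of Nppa to Nppb within an array is free of any factor common to that array, though not of a distortion that depends on brightness. A ratio between 2 probe sets has no meaning as a level, so only its differences between arrays are read. On the log2 scale of deposited signals it was 0.95 and 0.97 in treated, 0.42 and 0.35 in untreated apoE-deficient and 1.59 and 1.60 in B6 hearts. The 3 groups did not overlap, with B6 highest and untreated apoE-deficient lowest. The difference was -1.21 between untreated apoE-deficient and B6 hearts, a 2.31-fold lower ratio, 0.57 between treated and untreated apoE-deficient hearts, and -0.64 between treated and B6 hearts. With 2 arrays against 2 the exact two-sided permutation test cannot go below p = 0.333, which each of these gave. Among 10 ratios and 3 comparisons each, 30 in all, no p could pass, and none was adjusted. From quantile-normalised signals the same differences were -1.09, 0.88 and -0.21, so they kept their direction, with the last one smaller.

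Heart muscle and atrial genes gave different references for the peptides. Genes of the heart muscle list themselves differed: 4 of 18 were higher and 9 lower in treated than in untreated apoE-deficient hearts. Over all tested genes these shares were 11.4% and 12.3%. Against B6, 1 was higher and 8 lower in treated hearts, where 8.78% of all tested genes were higher and 9.88% lower. In untreated apoE-deficient hearts 1 was higher and 2 lower than in B6 hearts, where these shares were 3.85% and 4.65%. Over the geometric mean of 18 heart muscle genes of the same array, Nppa was lower by 0.52 in untreated apoE-deficient than in B6 hearts and higher by 0.72 in treated than in untreated apoE-deficient hearts, and Nppb was higher by 0.69 and by 0.15, the latter turning to -0.076 with quantile-normalised signals. Over 16 atrial marker genes, the Nppa difference was 0.17 in the first comparison and -0.75 in the second, against 1.38 and -1.32 for Nppb. Relative to atrial genes, Nppa was thus slightly higher in untreated apoE-deficient than in B6 hearts and lower in treated than in untreated apoE-deficient hearts, the reverse of its direction over heart muscle genes. Each of these differences of deposited signals had non-overlapping arrays and the smallest exact permutation p of 0.333. Between treated and B6 hearts, Nppa over atrial genes differed by -0.57, which turned to 0.042 with quantile-normalised signals.

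**Figure D2:**
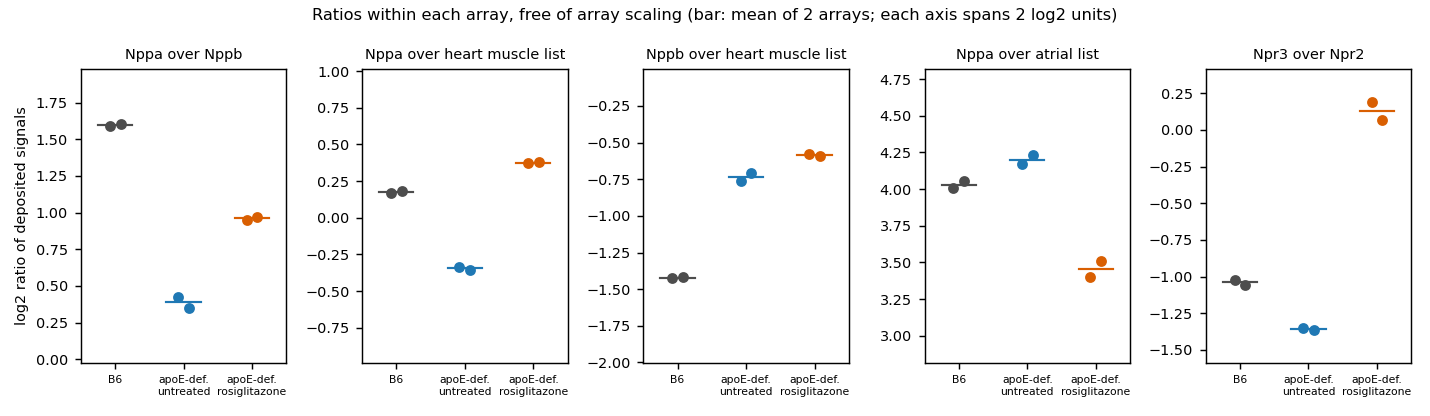
Log2 ratios of deposited signals within each array, 1 panel a ratio, for the 3 groups; points are arrays, bars are means of 2 arrays, and each axis spans 2 log2 units. The Nppa over Nppb ratio is near 1.60 in B6 hearts and at 0.35 and 0.42 in untreated apoE-deficient hearts, and Npr3 over Npr2 is highest on the treated arrays.

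Corin, the cell surface protease of heart muscle that cleaves pro-atrial natriuretic peptide, was lower after normalization in both apoE-deficient groups than in B6 hearts. Its deposited signals were 3482.8 and 2404.7 in treated, 1396.3 and 1395.3 in untreated apoE-deficient and 2481.4 and 2182.2 in B6 hearts, and its normalised log2 values 11.02 and 10.85, 11.04 and 11, and 11.43 and 11.47. In the normalised values the apoE-deficient groups overlapped each other and both lay below B6. By deposited signal treated hearts did not lie below B6. The difference between untreated apoE-deficient and B6 hearts was -0.43 ± 0.062 (limma adjusted p = 0.00523), lower in all 7 scalings and lost without the second B6 array (-0.41, adjusted p = 0.0518, with a range from 0.00103 to 0.15 over 17 alternatives). Treated hearts were below B6 by 0.51 ± 0.062 (limma adjusted p = 0.000706), and this turned to 0.11 with heart muscle scaling and 0.31 with no scaling, neither called. Treated and untreated apoE-deficient hearts differed by -0.084 ± 0.062 (limma adjusted p = 0.394). That difference was called as higher with heart muscle scaling (0.57) and no scaling (1.05), where the median of all probe sets was 0.54 and 0.91.

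Npr3, the clearance receptor, was higher in treated hearts on all 3 of its probe sets. The brightest had deposited signals of 1809.1 and 1384.2 in treated, 181.3 and 185.8 in untreated apoE-deficient and 301.4 and 261.2 in B6 hearts, and normalised log2 values of 10.05 and 10.05, 8.28 and 8.26, and 8.46 and 8.51. The second probe set had log2 values of 8.38 and 8.38, 6.52 and 7.09, and 6.55 and 6.76, and the third 6.81 and 6.89, 5.97 and 5.79, and 6.13 and 5.90. On each probe set both treated arrays lay above the other 4, and the second and the third did not separate untreated apoE-deficient from B6 hearts. Treated minus untreated apoE-deficient differences were 1.78 ± 0.078 (3.44-fold, limma adjusted p = 1.68e-06), 1.57 ± 0.20 (2.98-fold, 0.000757) and 0.97 ± 0.23 (1.96-fold, 0.0164). Against B6, treated hearts were higher by 1.57 ± 0.078, 1.73 ± 0.20 and 0.84 ± 0.23 (limma adjusted p = 4.13e-06, 0.000594 and 0.0376).

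These Npr3 differences between treated hearts and both other groups were called as higher under all 7 scalings. For the brightest probe set they ran from 1.78 to 3.04 against untreated apoE-deficient hearts and from 1.57 to 2.45 against B6. The third probe set rested on few arrays: its rise over untreated apoE-deficient hearts was not called without the first (1.01) or the second (0.93) treated array, and its rise over B6 was not called without either treated (0.88, 0.80) or either B6 array (0.95, 0.72). Between untreated apoE-deficient and B6 hearts no Npr3 probe set passed (-0.22, 0.15 and -0.14; limma adjusted p = 0.141, 0.707 and 0.776). The brightest passed there as lower with centred medians (-0.34).

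Npr2, the cyclase receptor for C-type natriuretic peptide, was also higher in treated hearts. Its deposited signals were 1583.0 and 1318.5 in treated, 462.4 and 478.9 in untreated apoE-deficient and 611.4 and 542.5 in B6 hearts, with normalised log2 values of 9.85 and 9.98, 9.54 and 9.54, and 9.45 and 9.52. Both treated arrays lay above the others. The rise was 0.37 ± 0.071 over untreated apoE-deficient hearts (1.29-fold, limma adjusted p = 0.00651) and 0.43 ± 0.071 over B6 (1.34-fold, limma adjusted p = 0.00388), called under all 7 scalings and lost in both comparisons without the fit's intensity trend (limma adjusted p = 0.0862 and 0.0933, the highest over 17 alternatives, the lowest being 9.78e-11 and 3.67e-07). Untreated apoE-deficient and B6 hearts differed by 0.057 ± 0.071 (limma adjusted p = 0.684). The log2 ratio of Npr3 to Npr2 within an array was 0.19 and 0.07 in treated, -1.35 and -1.37 in untreated apoE-deficient and -1.02 and -1.05 in B6 hearts, so the clearance receptor rose by more than Npr2, by 1.49 against untreated apoE-deficient hearts (exact permutation p = 0.333, the smallest possible).

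Npr1, the cyclase receptor for both cardiac peptides, was dim, and its groups overlapped. Its normalised log2 values were 5.47 and 5.91 in treated, 6.18 and 5.75 in untreated apoE-deficient and 5.45 and 5.83 in B6 hearts, against a filter level of 4.95. Treated hearts differed from untreated apoE-deficient hearts by -0.28 ± 0.32 and from B6 by 0.051 ± 0.32, and untreated apoE-deficient hearts from B6 by 0.33 ± 0.32 (limma adjusted p = 0.605, 0.949 and 0.597), and none passed under any of the 7 scalings. At this brightness a change of the size seen for Npr2 was not detectable.

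**Figure D3:**
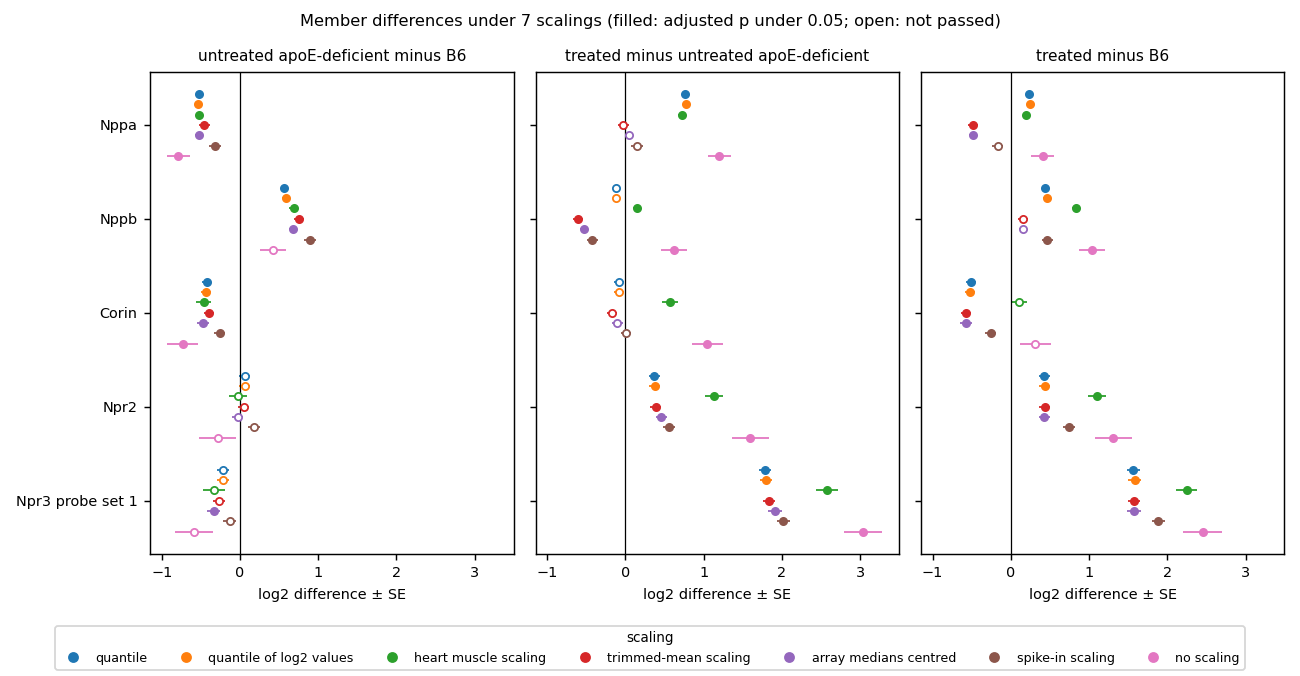
Log2 differences with SE (horizontal axis) of Nppa, Nppb, Corin, Npr2 and the brightest Npr3 probe set (rows) in the 3 comparisons (panels) under 7 scalings (colours); filled points have an adjusted p under 0.05. Npr2 and Npr3 stay right of 0 in both comparisons with treated hearts and Nppa stays left of 0 in untreated apoE-deficient minus B6, while Nppb in treated minus untreated apoE-deficient runs from -0.60 to 0.62.

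Other genes of natriuretic and cyclic GMP signalling were taken from a list of 28, of which 26 were on the array and 22 tested. Between treated and untreated apoE-deficient hearts 4 were higher, 5 lower and 13 did not pass, with a median difference of 0.21. Over all 13235 tested genes 11.4% were higher and 12.3% lower, with a median of -0.034. Of the peptide-degrading enzymes, Mme (neprilysin) rose by 1.35 ± 0.26 (limma adjusted p = 0.00595), a call lost without the first treated array (1.34), and Ide (insulin-degrading enzyme) was lower by 0.41, likewise lost without that array (-0.31). Among the phosphodiesterases, Pde3b rose by 1.62 ± 0.16 (limma adjusted p = 0.000223) and Pde2a, which cyclic GMP activates, by 0.52 ± 0.059, while Pde1c was lower by 0.71. Gucy1a1, a subunit of the nitric oxide receptor that also makes cyclic GMP, rose by 0.74 ± 0.10, and Nos3, the endothelial nitric oxide synthase, was lower by 0.48. Rgs4 and Rgs2, regulators of G protein signalling, were lower by 1.06 and 0.41. The 4 rises were called under all 7 scalings, and the 5 lower values turned above 0 with no scaling, 4 of them (all but Rgs4) with heart muscle scaling too.

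Between untreated apoE-deficient and B6 hearts 2 of the 22 passed, both lower: Pde2a by 0.26 and Vasp, a substrate of the cyclic GMP-dependent kinase, by 0.34. Over all genes 8.49% passed. Neither call held when any 1 array of these 2 groups was left out. Between treated and B6 hearts 4 were higher and 7 lower, where 18.7% of all genes passed; that count fell to 6 or 7 when any treated or B6 array was left out. The median differences were -0.21 and 0.052 in these comparisons, against 0.00082 and -0.027 over all genes.

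**Figure D4:**
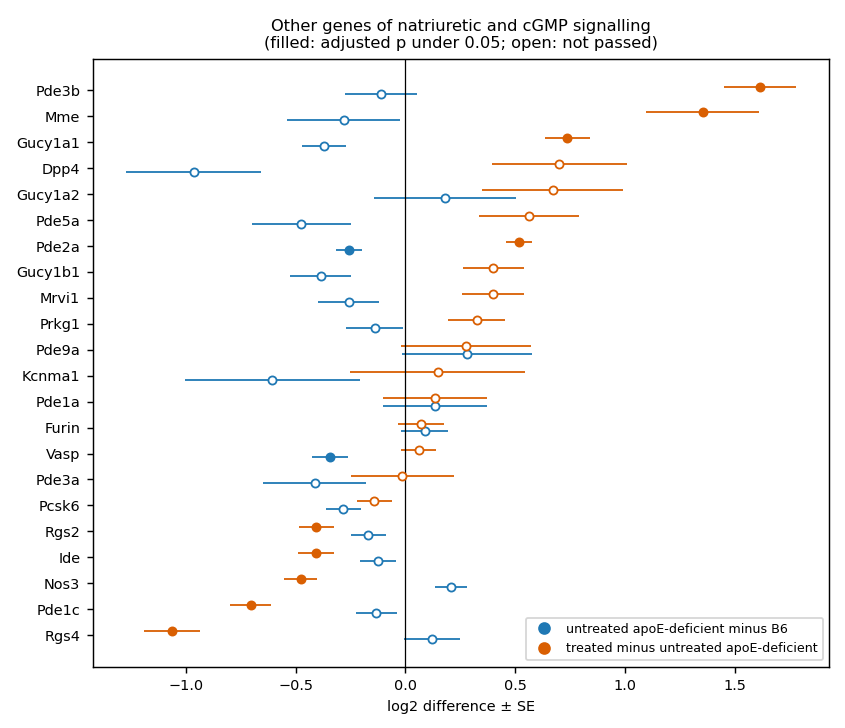
Log2 differences with SE (horizontal axis) of the 22 tested genes of natriuretic and cyclic GMP signalling that are not listed members (rows) in the comparisons of untreated apoE-deficient with B6 hearts and of treated with untreated apoE-deficient hearts; filled points have an adjusted p under 0.05. Pde3b (1.62) and Mme (1.35) lie farthest right and Rgs4 (-1.06) farthest left among the treated minus untreated differences.

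Transcription factors known to act on the Nppa and Nppb genes formed a list of 19, all tested. Between untreated apoE-deficient and B6 hearts, where Nppa was lower and Nppb higher, 6 passed, all lower, among them Mef2d (-0.46 ± 0.066) and Jarid2 (-0.57 ± 0.097), a repressor of Nppa. Over all tested genes 3.85% were higher and 4.65% lower there. That count of 6 fell to 2 without either untreated apoE-deficient array to 1 or 0 without the first or the second B6 array, and to 3 with heart muscle scaling. Between treated and untreated apoE-deficient hearts 4 were higher and 6 lower, where 11.4% of all tested genes were higher and 12.3% lower. Tbx20, a T-box factor of heart muscle, rose by 0.55 ± 0.062 and Mef2c by 0.35 ± 0.067, while Gata4, which binds GATA motifs of the kind marked in both windows above, was lower by 0.44 ± 0.062. The Gata4 value turned to 0.31 with heart muscle scaling and 0.78 with no scaling. Under these settings 18 and 19 of the list passed, where 67.1% and 84.1% of all tested probe sets did. Of those calls over all probe sets, 99.1% and 99.9% were higher. The count of 10 fell to 2 without the first treated array. Other arrays mattered too: it was 6 without the second treated array and 5 without either untreated apoE-deficient array.

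Genes of heart muscle stress, other than the peptides, were compared because Nppa and Nppb are used with them as markers of load. Of 19 tested genes, 6 passed between untreated apoE-deficient and B6 hearts, all higher, the direction of Nppb. Over all tested genes 3.85% were higher and 4.65% lower there. Acta1, the skeletal alpha-actin of the fetal gene programme, was higher by 0.75 ± 0.035, Ankrd23, a stretch-responsive protein of the sarcomere, by 0.48 ± 0.049, and Xirp1, an actin-binding protein of cell contacts, by 0.49 ± 0.060. The count was 3 or 4 without an untreated apoE-deficient or a B6 array, and 1 with no scaling. Between treated and untreated apoE-deficient hearts 7 were higher and 4 lower, where 11.4% of all tested genes were higher and 12.3% lower. Postn, which activated fibroblasts secrete into the matrix, rose by 1.21 ± 0.070, while Myh7, the slow myosin heavy chain, was lower by 1.0 ± 0.068 and Xirp1 by 0.69 ± 0.060. With no scaling these last values turned to 0.15 and 0.46. Stress genes thus did not share 1 direction between treated and untreated apoE-deficient hearts. Against B6, 11 were higher and 2 lower in treated hearts (median 0.42). Over all tested genes 8.78% were higher and 9.88% lower in that comparison.

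On the quantile-normalised scale most atrial markers that passed had the direction of Nppa. Without Nppa, 16 were tested: 9 were lower and 1 higher in untreated apoE-deficient than in B6 hearts (median -0.62), and 10 were higher and 2 lower in treated than in untreated apoE-deficient hearts (median 1.0), with 6 and 4 not passed. Over all tested genes 4.65% were lower and 3.85% higher in the first comparison, and 11.4% higher and 12.3% lower in the second. The summed normalised signal of these 16 was 55110 and 55247 in treated, 31773 and 31361 in untreated apoE-deficient and 41406 and 41701 in B6 hearts, the order of groups seen for Nppa. Myl7, the atrial light chain, was at 13.44 and 13.43, 11.92 and 11.92, and 12.93 and 12.92, and Sln (sarcolipin) at 12.70 and 12.72, 10.63 and 10.45, and 11.89 and 11.87 in treated, untreated apoE-deficient and B6 hearts, and both were called in these directions under all 7 scalings. Kcna5, a potassium channel gene on the atrial list, went against Nppa in treated hearts. Its difference was -2.31 ± 0.10 from untreated apoE-deficient hearts and -2.30 ± 0.10 from B6 hearts. All 16 were above the filter level in every group. The count of 10 called between untreated apoE-deficient and B6 hearts was 6 without either B6 array. In these bulk samples a different share of atrial tissue and a different RNA level per cell cannot be told apart, and the part of the atrial genes in the Nppa result was not tested. Of 13 ventricular markers, 5 were lower in untreated apoE-deficient than in B6 hearts (1 to 3 without an array of these groups), and 2 were higher and 4 lower in treated than in untreated apoE-deficient hearts. Their summed signal was 70404 and 74508, 74770 and 77606, and 81699 and 83190.

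Markers of some other cell types were mostly higher in treated than in untreated apoE-deficient hearts, as Npr3 was, and those of others were not. Of 12 smooth muscle and pericyte markers 5 were higher and 5 lower (median -0.094), and of 13 macrophage markers 2 and 2 (median -0.054). Of 4 erythroid markers 0 were higher and 2 lower, and of 10 mesothelial and epicardial markers 3 were higher and 0 lower. Of 12 white adipocyte markers, 7 were higher and 1 lower in treated than in untreated apoE-deficient hearts, where 11.4% of all tested genes were higher and 12.3% lower. The summed normalised signal of the 12 was 54649 and 54264 in treated, 35603 and 36053 in untreated apoE-deficient and 38165 and 36885 in B6 hearts. All 12 were above the filter level in treated hearts, and 1 lay below it in each of the other groups. Adipoq (adiponectin) rose by 5.10 ± 0.10 and the brown fat gene Ucp1 by 8.78 ± 0.40, and 6 of 11 brown adipocyte markers rose, with 1 lower. Of these 11, 2 lay below the filter level in untreated apoE-deficient and 3 in B6 hearts, and 0 in treated hearts. The endocardial and endothelial list did not share 1 direction: 7 of 16 rose, 3 were lower and 6 did not pass (median 0.12). Its sum was 28765 and 28086 in treated against 22364 to 22981 in the other groups. Fabp4 is on both this list and the white adipocyte list, so their counts and sums are not independent. Kdr, a receptor of vascular growth factor in endothelium, rose by 0.91 ± 0.064, while the water channel Aqp1 was lower by 3.0 ± 0.048. Of 12 fibroblast markers 10 passed, all higher (median 0.24), with sums of 45009 and 43883 in treated, 36830 and 37131 in untreated apoE-deficient and 40727 and 40840 in B6 hearts, a count of 5 to 7 without either treated or the first untreated apoE-deficient array and of 4 with the mean of probe sets. Of 11 lung and airway markers 5 rose and 1 was lower (median 1.70), with sums of 22503 and 23668 in treated and 9635.3 to 10673 in the other groups. Of these, 6 lay below the filter level in untreated apoE-deficient and 7 in B6 hearts, and 0 in treated hearts. Of 7 lymphocyte markers 3 rose and 1 was lower (median 1.52), with sums of 1675 and 1976.3 in treated and 299.2 to 389.7 in the other groups. Here 4 lay below the filter level in untreated apoE-deficient and 2 in B6 hearts, and 0 in treated hearts. Markers dim outside treated hearts could enter the test through their treated values. The counts and medians of the brown adipocyte, lung and lymphocyte lists therefore favour rises by selection. Between untreated apoE-deficient and B6 hearts, where Npr3 did not pass, 4 white adipocyte markers passed, all lower, and 3 endothelial genes were higher and 2 lower. Over all tested genes 3.85% were higher and 4.65% lower there. The part of RNA from these cell types in the Npr3 rise was not tested.

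**Figure D5:**
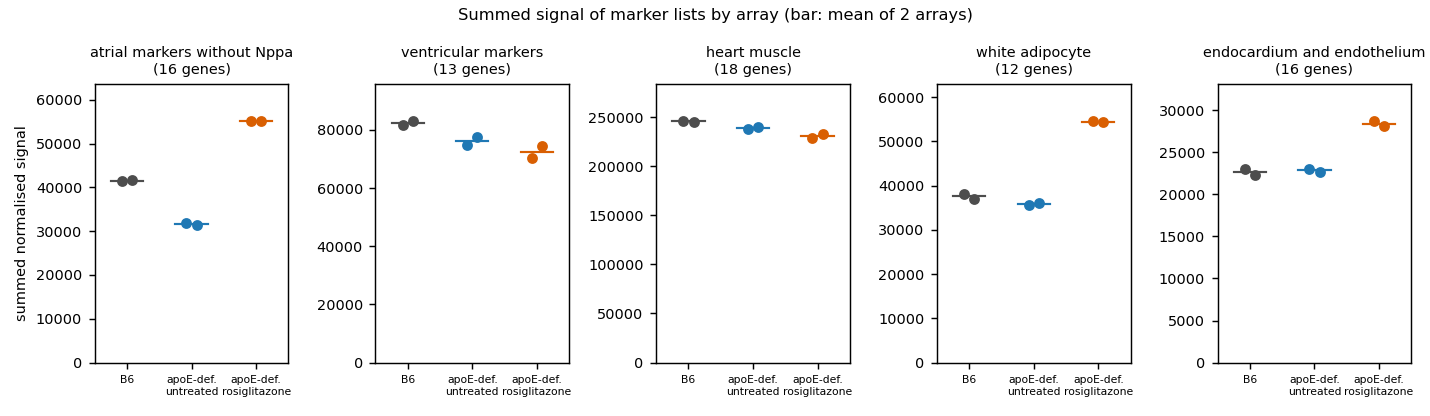
Summed normalised signal (vertical axis, from 0) of 5 marker lists in the 3 groups; points are arrays and bars are means of 2 arrays. The atrial sum runs from 31361 on an untreated apoE-deficient array to 55247 on a treated array, in the order of groups seen for Nppa, and the white adipocyte sum is highest on the treated arrays, as Npr3 is.

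Genes nearest in pattern were sought among 13234 others by the root mean square difference over the 6 arrays of log2 values centred on their mean. Nearest to Npr3 were Fasn (0.070), Apold1 (0.076), Cebpa (0.078), Car4 (0.093) and Cd300lg (0.093), and the list kept 4 or 5 of these 5 under each of the other 6 scalings. Fasn, the fatty acid synthase, was higher in treated than in untreated apoE-deficient hearts by 1.73. Cebpa, a transcription factor of fat cells and liver, was higher there by 1.79 ± 0.11. Apold1, Car4 and Cd300lg had like differences of 1.87, 1.68 and 1.74. Nearest to Nppa were Fbxo9 (0.019), Gpm6b (0.045), Uvssa (0.049), Zfp160 (0.050) and Col5a1 (0.053). Nearest to Nppb were Sae1 (0.032), Mal (0.038), Ankrd23 (0.040), Timp3 (0.041) and Tubb6 (0.044), of which Ankrd23 also stands among the stress genes above. For both peptides none of the 5 was kept under 5 of the other scalings, so these neighbours describe the quantile-normalised values alone. Corin was nearest to Mtx3 (0.041), Cadm4 (0.051), Plekhm3 (0.055), Kcnd2 (0.058) and Gm14057 (0.059), and Npr2 to Rab5c (0.021), Pdhb (0.039), Uri1 (0.040), Smarca2 (0.041) and Atp6v0e (0.041), with 0 or 1 kept under those 5 scalings. Npr1, whose groups overlapped, was nearest to Ctnnd2 (0.073). The likeness is over 6 arrays of 3 groups and says nothing of shared function.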

How the data were processed

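Total RNA of mouse hearts was labelled and hybridised to Affymetrix arrays, 6 in all. Each array has 1 deposited intensity per probe set, on a linear scale, and the submitters' processing notes name GCOS. No source used here gives its version, background step or scaling, and the number of arrays limits the precision. The signals were not on one scale, so linear signals of 45037 non-control probe sets were quantile-normalised, and log2 was taken after adding 10.2, which is the 25th percentile of the deposited values. The 27022 probe sets whose mean log2 exceeded the 40th percentile (4.95) entered the test, limma 3.58.1 under R 4.3.3 (functions lmFit and eBayes, intensity trend, 1 fit of 3 groups, 3 residual and 5.95 prior degrees of freedom), and the script was tested on simulated data. Calls have a Benjamini-Hochberg adjusted p under 0.05.

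The array annotation, which can be old, paired 34945 probe sets with 1 symbol; symbols were updated through GRCm38.p6, and promoter windows were found there for all 6 genes. A gene is its probe set with the highest mean. Members and gene lists were chosen with earlier results of these data known. Named are all members, up to 8 called pathway genes and 4 genes of each other list a comparison by smallest p, the 5 genes nearest in pattern, and Apoe. Alternatives were 6 other scalings (medians were centred by scaling linear signals, not on the log2 scale as planned), a pseudocount of 1, no filter, no intensity trend, fits of 2 groups, the replicate number as a block, each array left out, and the mean of a gene's probe sets.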

Additional observations from a re-analysis of the deposited data

How the results depend on the processing

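Called as in the main setting under all 7 scalings were Nppa and Corin (lower) in untreated apoE-deficient minus B6 hearts, and Npr2 and Npr3 (higher) in both comparisons with treated hearts. Heart muscle scaling turned Nppb (0.15), Corin (0.57), Ide (0.33), Pde1c (0.10), Rgs2 (0.37), Nos3 (0.30) and Gata4 (0.31) above 0 in treated minus untreated apoE-deficient hearts, and no scaling turned the same genes (0.62, 1.05, 0.80, 0.56, 0.84, 0.77 and 0.78), Rgs4 (0.22), Myh7 (0.15) and Xirp1 (0.46). Trimmed-mean scaling turned Nppa there to -0.029, and in treated minus B6 hearts Nppa turned to -0.48, -0.17 and -0.49 (trimmed-mean, spike-in, medians) and Corin to 0.11 and 0.31 (heart muscle, none). Counts of called probe sets moved to 18129 and 22739 in treated minus untreated apoE-deficient and to 16598 and 18725 in treated minus B6 with heart muscle scaling and no scaling. Spike-in scaling gave 3039 in untreated apoE-deficient minus B6 and 7604 in treated minus B6. Without the intensity trend the counts were 1610, 10 and 590, with 0 member probe sets in untreated apoE-deficient minus B6 and 2 in treated minus B6. Called pathway genes were 18 and 21 with heart muscle scaling and no scaling in treated minus untreated apoE-deficient. Under these settings 67.1% and 84.1% of all tested probe sets were called there. In untreated apoE-deficient minus B6 called pathway genes were 1 (spike-in), 5 (medians), 0 (heart muscle) and 1 (none). In treated minus B6 the mean of probe sets gave 6. Leaving out 1 array gave 2942 to 4990, 615 to 1724 and 2193 to 4112 called probe sets in the 3 comparisons, 4 to 5, 2 to 3 and 6 to 7 member probe sets, and 7 to 9, 0 to 2 and 6 to 9 pathway genes. Probe set counts moved by over 1.5 times without the first treated array (2942 and, against B6, 2284), either untreated apoE-deficient array (859, 971) and either B6 array (634, 615 and, against treated, 2617, 2193). The Nppa over Nppb ratio moved to 0.88, -1.09 and -0.21 with quantile-normalised signals and ran from 0.54 to 0.61, -1.25 to -1.17 and -0.65 to -0.63 with 1 array left out. Nppa over Corin ran from -0.026 to 0.32 and from -0.080 to 0.26 with 1 array left out, below 0 without the second treated array (treated minus untreated apoE-deficient, treated minus B6). With quantile-normalised signals Nppa over the atrial list turned to 0.042 in treated minus B6 and Nppb over the heart muscle list to -0.076 in treated minus untreated apoE-deficient. The cause was not tested in any of these.

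Groups share only replicate numbers 1 and 2, and the deviations of arrays with the same number correlated at -0.0058, 0.018 and 0.033, so the numbers pair nothing. With the replicate number as a block, 5337, 1937 and 4098 probe sets passed, and 6, 3 and 6 member probe sets: Nppb passed as lower in treated minus untreated apoE-deficient (limma adjusted p = 0.0431) and the third Npr3 probe set no longer passed in treated minus B6 (limma adjusted p = 0.0506, with a range from 1.2e-06 to 0.23 over 17 alternatives).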
